A study of Mus musculus with 6 samples.

Results

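Enzymes that place or remove methyl groups on histones and DNA, with the Polycomb proteins, were followed as 43 genes among the 27179 gene numbers of the deposited count table. The list was drawn up by gene name and function, applies no threshold to measured values, and comprises Polycomb subunits, histone lysine methyltransferases and demethylases, DNA methyltransferases with their partner Uhrf1, and the TET dioxygenases. The cells were CD8+ T cells from gBT-I transgenic mice, whose T cells share 1 receptor of known target, grown from whole spleen cells that were activated in culture with the gB peptide that it recognises and with lipopolysaccharide. All 6 cultures received IL-2 from day 2 to day 5 and were harvested on day 6. The 3 control libraries received no further treatment named in the labels, and the 3 butyrate libraries came from cells given butyrate, a short-chain fatty acid that inhibits histone deacetylases, from day 3. The sources used here give neither the butyrate dose, the age of the mice, nor any sorting of the cells after culture, and do not say whether replicates were separate mice or cultures.

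As background, methylation of lysine 4 of histone H3 (H3K4) marks active promoters and enhancers, methylation of lysine 36 (H3K36) marks transcribed gene bodies, and methylation of lysines 9 and 27 (H3K9, H3K27) marks silent chromatin. Polycomb repressive complex PRC2 methylates H3K27, and PRC1 binds that mark and ubiquitinates histone H2A. Dnmt1 copies CpG methylation after DNA replication with the help of Uhrf1, Dnmt3a and Dnmt3b methylate DNA afresh, and TET enzymes oxidise methylcytosine. In CD8+ T cells, Ezh2, Dnmt3a, Tet2 and Suv39h1 are known for setting effector and memory gene programmes.

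More of these genes were lower than higher with butyrate. By edgeR's quasi-likelihood test with Benjamini-Hochberg adjustment over all 11740 genes tested, 19 of the 43 fell, 5 rose and 19 were not called at an adjusted p of 0.05. All 43 passed the filter on low counts, so none was left untested. Called genes were 55.8% of the 43, against 45.9% of all genes tested. Lower calls made up 44.2% of the 43 against 22.5% of all genes, and higher calls 11.6% against 23.5%. Their median log2 fold change was -0.20, beside 0.0034 over all genes tested. The changes were moderate: called genes changed by 1.19-fold to 1.81-fold, and 0 of the 43 were called with a change of at least 2-fold by edgeR, DESeq2 or limma voom, against 10.6% of all genes higher and 3.33% lower by edgeR. At an unadjusted p of 0.05, 22 were lower and 6 higher (51.2% and 14%, against 26.2% and 27.5% of all genes). In 26 of the 43 the groups did not overlap, against 57.1% of all genes tested: 21 lower (28.2% of all genes) and 5 higher (28.9%).

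Upper quartile scaling gave 16 lower and 6 higher among the 43, while among all genes it moved the share of calls that were higher from 51.1% to 61.8%. Most of the 43 are abundant and long genes, and both properties moved with the direction of calls. In the upper 2 of 5 classes of abundance, which held 33 of the 43, 30.1% and 31.2% of all genes were lower, and 17 of those 33 were. The longest of 5 classes by merged exon length held 25 of the 43, of which 15 were lower, against 30.1% of all genes in that class. In the shortest class, which held 0 of the 43, 14% of all genes were lower. With each library's trend on exon length and GC content removed, an alternative chosen after the data were seen, 16 of the 43 were lower and 6 higher. Among all 11740 genes tested, that fit called 2485 lower and 2839 higher. In bulk RNA, fewer cells of a type and less RNA per cell cannot be told apart.

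**Figure D1:**
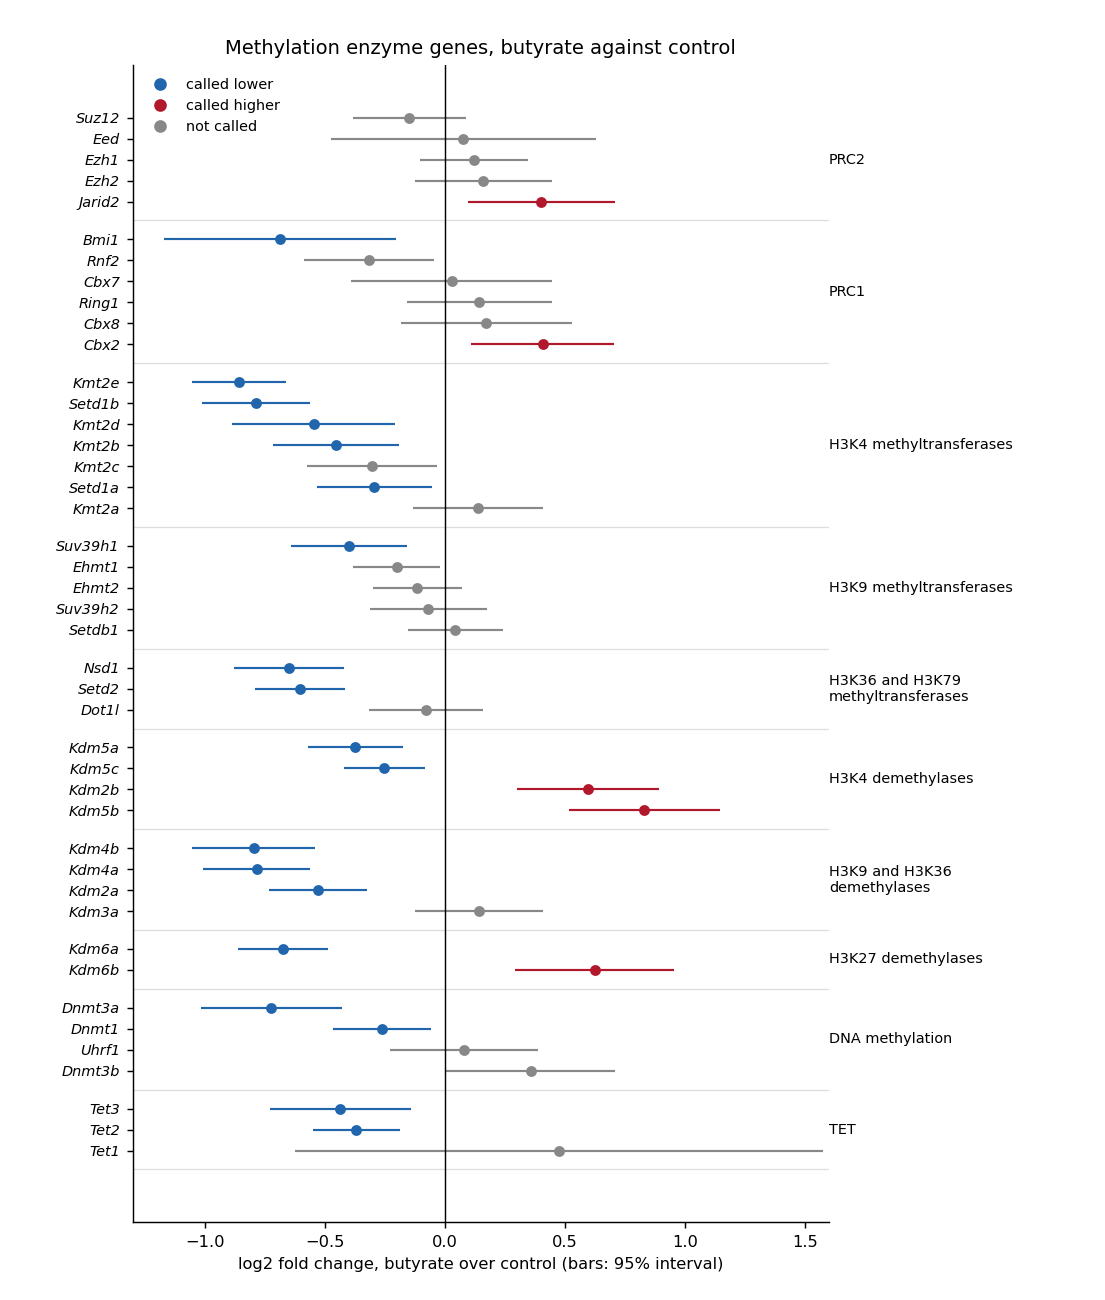
Log2 fold change of each of the 43 genes, butyrate over control, by role (points, with 95% intervals from edgeR as bars), coloured by call. Each role but PRC2 holds a gene that fell, and the 5 that rose are Jarid2, Cbx2, Kdm2b, Kdm5b and Kdm6b.

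The libraries held 5383380 to 6244350 counts, and the 43 genes took 0.538% to 0.578% of the counts of a control library and 0.448% to 0.525% of those of a butyrate library. Values per library are CPM, counts scaled to a common total with trimmed mean of M-values (TMM) factors, group values are means ± SD (n = 3), and levels of different genes are compared only as CPM per kb of merged exon. CD8+ T cell markers were present, among them Cd8a at 454 ± 62.1 and 436 ± 55.05 CPM in control and butyrate. Of 12 tested 4 fell, Cd247 with the smallest p, and Gzmb rose. The sum of the 12 was 7669 to 9238 CPM in control and 11270 to 13500 CPM with butyrate. Gzmb alone took 3229 ± 576 and 7120 ± 983 CPM of it. The B cell gene Pax5 had 0 counts in all 6 libraries, and Adgre1, Csf1r, Ncr1, Ly6g, Mpo and Elane stood under 1 CPM on average in either group. The summed markers of B and plasma cells were 27.9 to 30.1 CPM in control and 40.8 to 49.2 CPM with butyrate, and 2 of 4 tested rose (Sdc1 and Cd22). Those of myeloid cells were 151 to 216 CPM in control and 299 to 318 CPM with butyrate, and 4 of 9 rose, Itgam and H2-Ab1 most clearly. Summed CD4 T cell markers were 74.0 to 83.2 CPM in control and 121 to 130.2 CPM with butyrate (Zbtb7b and Cd4 rose, of 3 tested). Most of that sum was Zbtb7b (69.8 ± 7.06 and 117 ± 6.52 CPM), while Cd4 stood at 0.609 ± 0.737 and 4.63 ± 0.842 CPM and Cd40lg was not called. NK cell markers summed to 596 to 914 CPM in control and 568 to 1011 CPM with butyrate (Klrb1c and Klre1 rose and Eomes fell, of 4). Granulocyte and erythroid markers summed to 3.52 to 14.9 CPM in control and 6.36 to 57.3 CPM with butyrate (Hbb-b1 rose, of 2). Of 24 proliferation markers 11 fell, Cdc20 and Plk1 most clearly, and 2 rose, E2f1 and Mcm6, with sums of 10010 to 10440 CPM in control and 7176 to 9208 CPM with butyrate. By share, 45.8% of them fell and 8.33% rose. Over all genes tested, 22.5% were lower and 23.5% higher, which is the background for the other marker counts too. What part cell composition or cell cycling has in the results below was not tested.

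The order of the 43 by level per length was led by maintenance methylation and Polycomb genes. Uhrf1 stood first in control at 125 ± 12.8 CPM per kb, followed by Suz12 at 76.3 ± 5.85, Dnmt1 at 69.7 ± 3.96, Suv39h1 at 50.5 ± 1.71 and Ezh2 at 43.9 ± 4.81. Suz12 and Dnmt1 lay within their summed SDs of each other, and Suv39h1 and Ezh2 lay about their summed SDs apart. The lowest was Tet1, at 0.331 ± 0.212 CPM per kb, below Kdm5b at 1.79 ± 0.235 and Kdm6b at 1.94 ± 0.286, whose SDs overlapped. Of the 5 genes that rose, Kdm5b and Kdm6b were thus among the 3 lowest in control, and both stayed among the 3 lowest with butyrate (3.19 ± 0.333 and 2.98 ± 0.161).

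**Figure D2:**
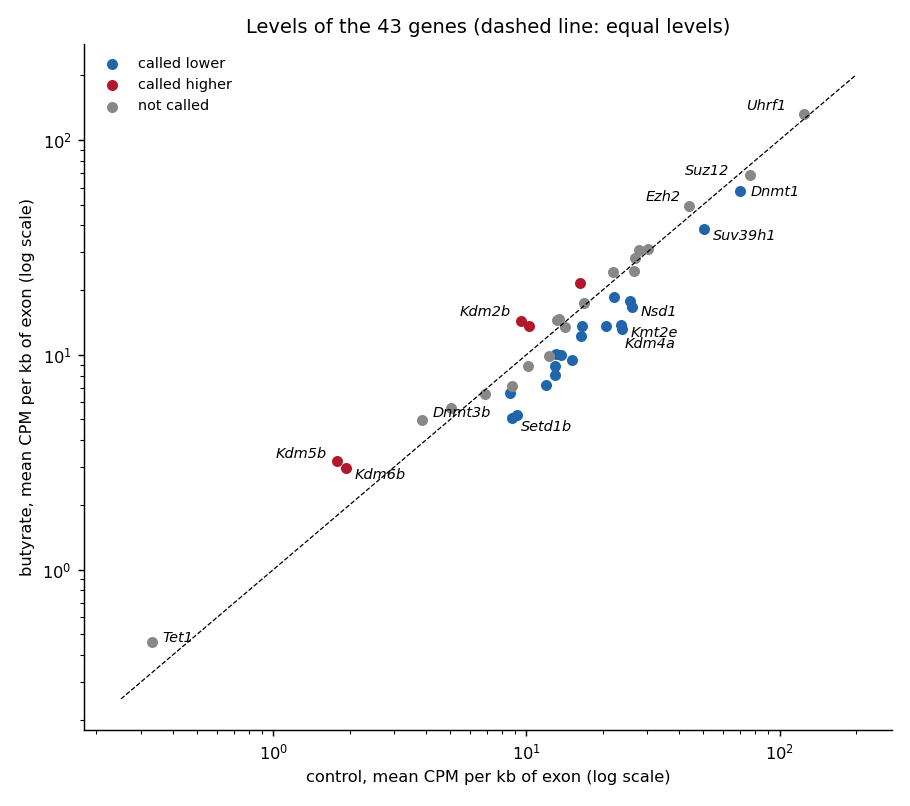
Mean level of each of the 43 genes in control (x axis) and butyrate (y axis) libraries, in CPM per kb of merged exon, both axes logarithmic, coloured by call. Uhrf1 is the highest point and Tet1 the lowest, and points under the dashed line are lower with butyrate.

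Promoters of these genes were read from RefSeq windows on GRCm38.p6, each covering 250 bases before to 50 after a transcript start. The table held windows for 34 of the 43 genes, 47 in all. They were rich in CpG, the dinucleotide that DNA methyltransferases act on: a window held a median of 28 CpG, against 21 over the 11588 windows of genes tested and 7 over all 32851 windows. Windows of genes that fell (17 windows of 12 genes) had a median of 23, those of genes that rose (7 windows of 3 genes) 24, and those not called (23 windows of 19 genes) 31. The 150 bases before the start are shown for a gene that rose, a pair that fell and one that was not called, chosen among those whose bases lie outside the annotated gene, with CpG in capitals, 5′ to 3′.
Jarid2, higher (chr13:44730624-44730773, plus strand): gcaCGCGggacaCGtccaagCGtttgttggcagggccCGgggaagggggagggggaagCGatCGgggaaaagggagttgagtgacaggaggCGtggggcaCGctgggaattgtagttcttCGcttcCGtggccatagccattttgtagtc
Bmi1, lower (chr2:18676868-18677017, plus strand): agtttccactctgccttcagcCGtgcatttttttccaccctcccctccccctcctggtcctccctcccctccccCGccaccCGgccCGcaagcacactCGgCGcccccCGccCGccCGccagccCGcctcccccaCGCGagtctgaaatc
Suv39h1, lower (chrX:8074761-8074910, minus strand): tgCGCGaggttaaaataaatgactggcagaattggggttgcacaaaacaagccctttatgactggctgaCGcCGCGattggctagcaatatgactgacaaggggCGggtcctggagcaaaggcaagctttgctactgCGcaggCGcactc
Suz12, not called (chr11:79992956-79993105, plus strand): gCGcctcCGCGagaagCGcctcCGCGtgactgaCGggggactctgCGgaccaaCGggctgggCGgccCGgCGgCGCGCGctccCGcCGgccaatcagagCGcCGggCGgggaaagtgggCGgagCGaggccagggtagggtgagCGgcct
These stretches hold 11, 12, 8 and 23 CpG in that order. Over whole windows, genes that fell ran from 2 CpG in 1 of 3 windows of Dnmt1 to 57 in the window of Tet2.

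Short motifs were counted on both strands in the same windows. The letters TTTNNCGC, as bound by E2F factors of the cell cycle, were in 6 of the 47 windows (12.8%), against 8.64% of windows of genes tested and 5.17% of all. They were found in 1 window each of Suv39h1 and Dnmt1 among the genes that fell, of Ezh2, Suz12 and both windows of Uhrf1 among those not called, and in 0 of the 7 windows of genes that rose. TTTGAA was in 12.8% of the 47 windows, against 12% of windows of genes tested and 17.9% of all. CACGTG was in 12.8%, against 10.2% and 7.15%, and CCGGAAG in 6.38%, against 18.7% and 8.86%. Each motif was counted separately, and overlaps between motifs were not removed. A match describes letters only.

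In PRC2, the genes of the catalytic core were not called and the accessory subunit gene Jarid2 rose. Jarid2 (chromosome 13, 44730774 to 44921643, gene 16468), which helps to recruit PRC2, had 59.4, 65.3 and 64.9 CPM in the control libraries and 69.7, 101 and 79.3 CPM in the butyrate libraries. All 3 butyrate values lay above the control values (log2 fold change 0.40, SE 0.135, adjusted p = 0.0365). The call was lost without any one of control replicates 1, 2 and 3 (adjusted p = 0.0986, 0.0742 and 0.0699) or butyrate replicate 3 (0.0536). Without butyrate replicate 2 it was lost too, and the log2 fold change shrank to 0.24 (0.111). These fits called 37.5% to 39.2% of all genes, against 45.9% with all libraries.

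Ezh2, the main H3K27 methyltransferase of dividing cells, had 136, 124 and 109 CPM in the control libraries and 156, 141 and 115 CPM in the butyrate libraries. Its groups overlapped and the interval of its log2 fold change was -0.13 to 0.45 (adjusted p = 0.325). Ezh1, the paralog known from resting cells, ranged likewise (82.03 ± 7.78 and 89.3 ± 7.005 CPM in control and butyrate, interval -0.10 to 0.35). Suz12, a structural subunit, stood at 334 ± 25.6 and 301 ± 33.9 CPM (interval -0.38 to 0.09). Eed, which binds the methyl mark, stood at 55.3 ± 12.7 and 58.4 ± 20.6 CPM, with its highest value in butyrate replicate 3 and the widest interval of the core (-0.47 to 0.63). The log2 ratio of Ezh2 to Ezh1 per kb was 1.71, 1.72 and 1.67 in control and 1.80, 1.86 and 1.54 with butyrate. Ezh2 was thus the higher of the pair in all 6 libraries, and the ratios of the groups overlapped. The summed PRC2 level was 657 ± 23.8 CPM in control and 670.1 ± 35.1 CPM with butyrate. With length and GC offsets and the replicate block together, Ezh2 was called higher (0.20, adjusted p = 0.0457).

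Of 7 other PRC2 subunits 2 were higher and 2 lower (28.6% each, near the 23.5% and 22.5% of all genes), and 1 was lower with upper quartile scaling. Phf19, a Polycomb-like subunit that reads H3K36 methylation, had 95.8, 94.8 and 104 CPM in the control libraries and 39.8, 34.4 and 28.6 CPM in the butyrate libraries, a fall of 1.52 on the log2 scale (adjusted p = 5.07e-05) that exceeded that of each of the 43 genes. Its relative Phf1 fell by 0.69 (adjusted p = 0.0323). Epop and Aebp2, which join different forms of the complex, rose by 0.46 and 0.47 (adjusted p = 0.0053 and 0.00753).

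Of the PRC1 genes, Bmi1 fell, Cbx2 rose and the other 4 were not called. Bmi1 (chromosome 2, 18677018 to 18686629, gene 12151), a ring finger subunit that restrains the Cdkn2a locus, had 42.1, 45.4 and 56.3 CPM in the control libraries and 19.4, 34.04 and 35.9 CPM in the butyrate libraries. The groups did not overlap, and butyrate replicate 1 was the lowest (log2 fold change -0.69, SE 0.213, adjusted p = 0.027). Its call was lost without control replicate 2 (0.0576) or 3 (0.0987). Cbx2 (chromosome 11, 119023019 to 119031275, gene 12416), a chromodomain subunit, had 66.8, 62.3 and 56.3 CPM in the control libraries and 96.5, 81.2 and 68.4 CPM in the butyrate libraries. It was higher in each butyrate library than in each control library (log2 fold change 0.41, SE 0.131, adjusted p = 0.0309), and its call was lost without control replicate 2 (0.0679) or 3 (0.0884) or butyrate replicate 1 (0.0874) or 2 (0.072).

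Rnf2, the main ubiquitin ligase of PRC1, was lower in every butyrate library without passing the test (41.1 ± 3.76 and 33.04 ± 3.85 CPM, adjusted p = 0.0575), and passed it with the replicate block (0.021). Its partner Ring1 stood at 26.8 ± 4.06 and 29.6 ± 2.39 CPM (interval -0.16 to 0.45). The chromodomain genes Cbx7 and Cbx8 stood at 103 ± 27.5 and 105 ± 16.5 CPM and at 17.97 ± 2.48 and 20.3 ± 3.08 CPM, with intervals of -0.39 to 0.45 and -0.18 to 0.53. Among 17 tested genes of other PRC1 subunits 5 rose and 1 fell (29.4% and 5.88%, against 23.5% and 22.5% of all genes). Phc3, a polyhomeotic subunit, went from 220.1 ± 12.98 to 439 ± 21.4 CPM and Bcorl1 from 18.02 ± 1.66 to 30.3 ± 1.71 CPM (log2 fold changes 0.99 and 0.75, adjusted p = 6.58e-05 and 0.00101). Scml4 fell from 50.5 ± 8.30 to 16.7 ± 5.26 CPM (-1.60, adjusted p = 0.000443).

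The H3K4 methyltransferases fell in 5 of 7 genes by edgeR and limma voom (71.4%, against 22.5% of all genes) and in 4 by DESeq2. None rose by these tools (0 also at an unadjusted p of 0.05). The summed level of the 7 was 1229 ± 107 CPM in control and 998 ± 134 CPM with butyrate. Kmt2e (chromosome 5, 23433036 to 23504235, gene 69188), which carries a SET domain of the family but is known as a reader of the mark rather than an active enzyme, had 176, 179 and 168 CPM in the control libraries and 101, 100.1 and 87.04 CPM in the butyrate libraries. The butyrate libraries lay far below the control range, and this was the largest fall of the 43 (log2 fold change -0.86, SE 0.0861, adjusted p = 0.000129). Setd1b (chromosome 5, 123142040 to 123168630, gene 208043), a catalytic subunit of COMPASS that trimethylates H3K4 at promoters, had 79.9, 80.1 and 72.5 CPM in the control libraries and 50.1, 43.3 and 41.4 CPM in the butyrate libraries (log2 fold change -0.79, SE 0.0998, adjusted p = 0.00038). Its highest butyrate value was well under its lowest control value.

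The other Set1 enzyme, Setd1a, changed less. It fell from 109.7 ± 8.02 to 89.5 ± 10.5 CPM, by 0.29 on the log2 scale (SE 0.106, adjusted p = 0.0487), and the call was lost in 9 of 18 alternatives, among them DESeq2 (0.0734), total count scaling (0.0577), upper quartile scaling (0.129) and the fits without control replicate 1 (0.1) or 2 (0.151) or butyrate replicate 2 (0.075) or 3 (0.132). Kmt2d, which methylates H3K4 at enhancers, fell from 257 ± 36.5 to 176 ± 33.1 CPM (-0.55 on the log2 scale, adjusted p = 0.0163), and lost its call without control replicate 1 (0.0532) or butyrate replicate 2 (0.0547). Kmt2c, its paralog at enhancers, had 132 ± 13.6 and 107 ± 14.9 CPM in control and butyrate with overlapping groups (adjusted p = 0.0651), and was called lower with the replicate block (0.00811). Kmt2b fell from 116 ± 15.1 to 84.5 ± 8.16 CPM (-0.45, adjusted p = 0.0119). Kmt2a, the MLL gene, was the exception in sign at 379, 382 and 328 CPM in the control libraries and 470.1, 368 and 362 CPM in the butyrate libraries (interval -0.13 to 0.41). Its groups overlapped, yet it was called higher with length and GC offsets (0.29, adjusted p = 0.0422). The log2 ratio of Kmt2b to Kmt2a per kb was -0.57, -0.78 and -0.74 in control and -1.37, -1.25 and -1.22 with butyrate, with no overlap of the groups.

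Of 13 tested genes for subunits of the complexes of these enzymes, most of them specific to some complexes, 8 fell by edgeR and limma voom and 7 by DESeq2, and 0 rose by any of the 3 (0 also at an unadjusted p of 0.05). The falls by edgeR were 61.5%, against 22.5% of all genes. Hcfc1, a cofactor of Set1 and MLL complexes, went from 581 ± 40.8 to 363 ± 31.8 CPM (-0.68, adjusted p = 0.000666), and Cxxc1, which brings Set1 to CpG, from 79.5 ± 6.05 to 58.4 ± 4.23 CPM (-0.44, 0.00521). Of the core common to the complexes, Ash2l fell by 0.35 (adjusted p = 0.0141) and the others were not called, with Wdr5 at 138 ± 5.77 and 139 ± 1.83 CPM, Rbbp5 at 97.03 ± 3.20 and 93.6 ± 5.72 CPM and Dpy30 at 56.04 ± 2.48 and 55.9 ± 3.30 CPM. The count of lower subunits was 4 with upper quartile scaling and 6 with length and GC offsets.

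Among H3K9 methyltransferases, 1 of 5 fell (20%, near the 22.5% of all genes tested). Suv39h1 (chromosome X, 8061171 to 8074760, gene 20937), which trimethylates H3K9 in heterochromatin and silences memory genes in effector CD8+ T cells, had 259, 251 and 242 CPM in the control libraries and 218, 186 and 166 CPM in the butyrate libraries. Each butyrate library lay under the control range (log2 fold change -0.40, SE 0.106, adjusted p = 0.0142). Suv39h2, its paralog, was not called (29.8 ± 1.31 and 28.4 ± 2.50 CPM, interval -0.31 to 0.18), and the log2 ratio of Suv39h2 to Suv39h1 per kb was -2.95, -2.92 and -2.75 in control and -2.60, -2.55 and -2.45 with butyrate. Suv39h1 was thus the higher of the pair in all 6 libraries. Ehmt1 and Ehmt2, which form the G9a and GLP pair, stood at 60.6 ± 1.13 and 52.8 ± 1.99 CPM and at 109 ± 6.96 and 101 ± 3.63 CPM (adjusted p = 0.07 and 0.28), and Ehmt1 did not overlap between the groups. Setdb1, the enzyme that silences retroelements, had the narrowest control spread of this group (78.4 ± 0.942 and 80.8 ± 6.83 CPM, interval -0.15 to 0.24). Of 12 readers and partners of H3K9 methylation, 5 fell (3 with length and GC offsets, 7 with the replicate block) and Pphln1 rose (log2 fold change 0.32, adjusted p = 0.0226). In the main fit that is 41.7% lower and 8.33% higher, against 22.5% and 23.5% of all genes. Zfp644, a G9a partner, went from 65.3 ± 4.54 to 40.1 ± 2.05 CPM and Atf7ip, a Setdb1 partner, from 121 ± 8.37 to 69.7 ± 10.8 CPM (log2 fold changes -0.70 and -0.79, adjusted p = 0.00048 and 0.00085).

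The H3K36 methyltransferase genes Setd2 and Nsd1 fell. Setd2 (chromosome 9, 110532500 to 110618633, gene 235626), the enzyme of H3K36 trimethylation, had 177, 179 and 162 CPM in the control libraries and 114, 119 and 107 CPM in the butyrate libraries (log2 fold change -0.60, SE 0.0822, adjusted p = 0.000532). Nsd1 (chromosome 13, 55209782 to 55318325, gene 18193), which dimethylates H3K36, had 372, 348 and 345 CPM in the control libraries and 251, 231 and 197 CPM in the butyrate libraries (log2 fold change -0.65, SE 0.102, adjusted p = 0.00104). In both genes the groups were far apart, with the lowest value in butyrate replicate 3. Nsd2 and Nsd3, the paralogs of Nsd1, were not called (418 ± 8.48 and 354 ± 46.7 CPM and 291 ± 27.4 and 276 ± 27.7 CPM, adjusted p = 0.0878 and 0.555), and Nsd2 was called lower with the replicate block (0.0482). Dot1l, the H3K79 methyltransferase, was not called (96.3 ± 10.1 and 91.2 ± 7.90 CPM, interval -0.32 to 0.16). Other lysine methyltransferase genes fell in 8 of 19 tested and rose in 4 (42.1% and 21.1%, against 22.5% and 23.5% of all genes). Kmt5b, which methylates lysine 20 of histone H4, went from 90.7 ± 4.84 to 38.05 ± 3.58 CPM (-1.25, adjusted p = 4.8e-05) and Kmt5a, the monomethylating enzyme of that residue, from 235 ± 7.66 to 162 ± 6.55 CPM (-0.54, 0.000625). Smyd4 and Setmar rose by 0.44 and 0.89 (adjusted p = 0.00624 and 0.0138).

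**Figure D3:**
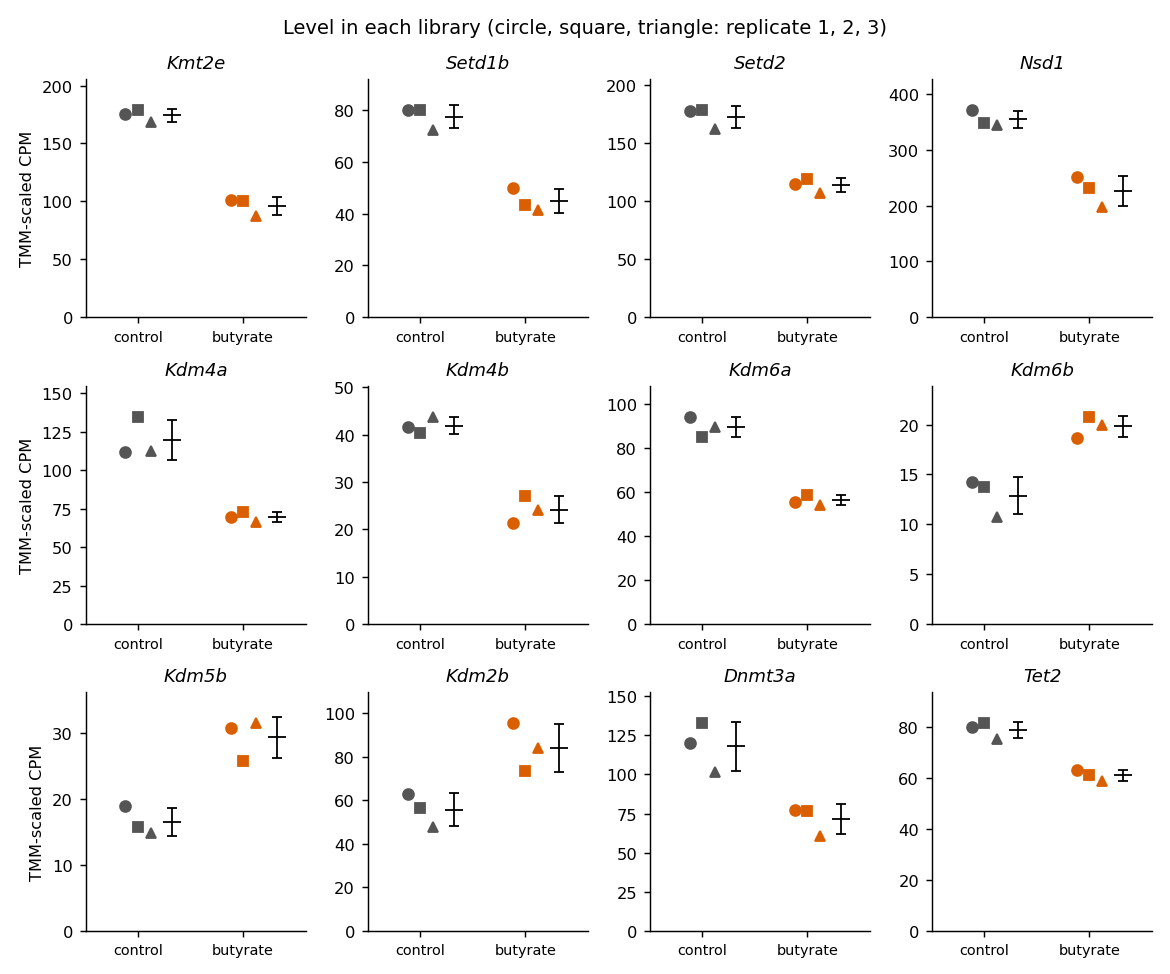
Level in TMM-scaled CPM (y axes from 0) of 12 of the genes in each control and butyrate library, with the mean and SD of each group in black beside the points. The groups do not overlap in any panel, and Kdm6b, Kdm5b and Kdm2b are the genes with the butyrate libraries on top.

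The demethylases of H3K4 and H3K27 moved in opposite directions within their families. Kdm5b (chromosome 1, 134560178 to 134632878, gene 75605), which removes H3K4 methylation, had 18.9, 15.8 and 14.8 CPM in the control libraries and 30.7, 25.8 and 31.4 CPM in the butyrate libraries. All butyrate values were above the control range, and this was the largest rise of the 43 (log2 fold change 0.83, SE 0.139, adjusted p = 0.00146). Its paralogs fell: Kdm5a went from 143 ± 6.19 to 110.4 ± 9.22 CPM and Kdm5c, which lies on the X chromosome, from 148 ± 3.22 to 124 ± 4.93 CPM (log2 fold changes -0.37 and -0.25, adjusted p = 0.0079 and 0.022). With length and GC offsets the log2 fold change of Kdm5a was -0.18 (adjusted p = 0.097). Kdm5c lost its call with those offsets (0.0555), with upper quartile scaling (0.0911) and without control replicate 2 (0.0791) or 3 (0.068) or butyrate replicate 2 (0.0701). The log2 ratio of Kdm5b to Kdm5a per kb was -2.68, -2.99 and -2.96 in control and -1.52, -1.98 and -1.50 with butyrate. Kdm5a was the higher of the pair in all 6 libraries, and the gap was narrower in each butyrate library than in each control library.

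Kdm2b (chromosome 5, 122870664 to 122989270, gene 30841), a CpG-binding demethylase that recruits a variant PRC1, had 62.6, 56.6 and 47.5 CPM in the control libraries and 95.2, 73.2 and 83.9 CPM in the butyrate libraries (log2 fold change 0.60, SE 0.131, adjusted p = 0.00558). Its butyrate values spread widely but stayed above the control range. Its paralog Kdm2a, an H3K36 demethylase, went the other way, from 248 ± 12.3 to 172 ± 14.7 CPM (-0.53, adjusted p = 0.00164). Both calls held in all 18 alternatives.

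Kdm6a (chromosome X, 18160862 to 18279936, gene 22289), known as UTX, and Kdm6b (chromosome 11, 69398508 to 69420367, gene 216850), known as JMJD3, both remove H3K27 methylation. Kdm6a had 94.3, 85.1 and 89.7 CPM in the control libraries and 55.7, 58.8 and 54.3 CPM in the butyrate libraries (log2 fold change -0.67, SE 0.0828, adjusted p = 0.000332). Kdm6b had 14.2, 13.7 and 10.7 CPM in the control libraries and 18.7, 20.8 and 19.96 CPM in the butyrate libraries (log2 fold change 0.62, SE 0.146, adjusted p = 0.0077). Neither gene overlapped between the groups, and both calls held in all 18 alternatives. The log2 ratio of Kdm6b to Kdm6a per kb was -2.89, -2.80 and -3.23 in control and -1.74, -1.66 and -1.61 with butyrate, so that Kdm6a was the higher in every library by less in butyrate than in control. Their summed level was 103 ± 5.21 CPM in control and 76.1 ± 3.06 CPM with butyrate. Uty, the Y-linked paralog of Kdm6a, had 0 counts in all 6 libraries, which allows up to 0.480 to 0.557 CPM by counting error.

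**Figure D4:**
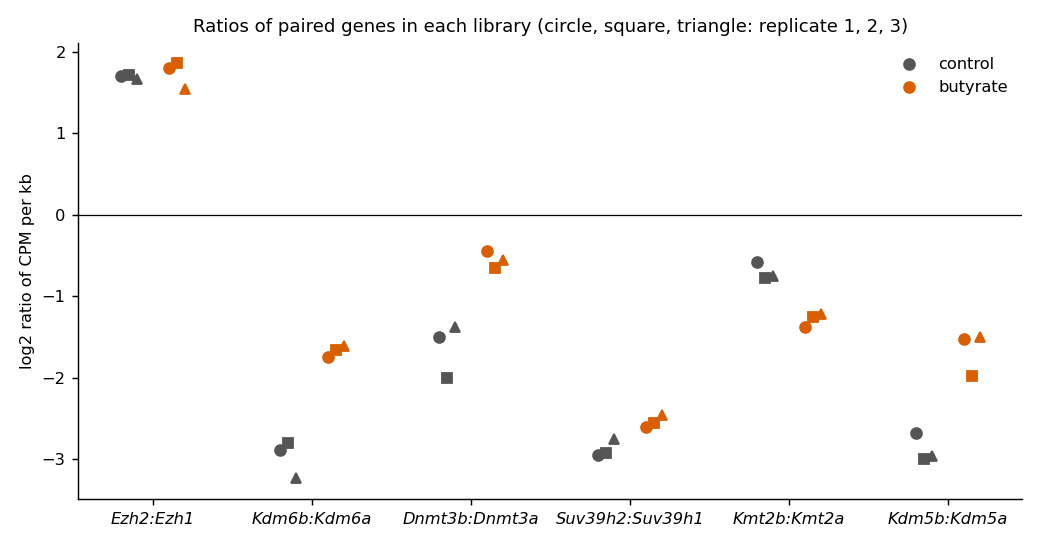
Log2 ratio of CPM per kb (y axis) between paired genes of a family in each control (grey) and butyrate (orange) library. The groups overlap for Ezh2:Ezh1, are apart for the other 5 pairs, and the ratio is lower with butyrate for Kmt2b:Kmt2a.

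Of the H3K9 and H3K36 demethylases 3 of 4 fell (75%, against 22.5% of all genes). Kdm2b, the paralog of Kdm2a that rose, was counted with the H3K4 demethylases and not here. Their summed level was 548 ± 2.89 CPM in control and 419 ± 29.03 CPM with butyrate. Kdm4a (chromosome 4, 118136957 to 118180090, gene 230674), which removes both marks, had 112, 135 and 113 CPM in the control libraries and 69.7, 72.9 and 65.97 CPM in the butyrate libraries (log2 fold change -0.78, SE 0.0984, adjusted p = 0.000369). Kdm4b (chromosome 17, 56325970 to 56403774, gene 193796), its paralog, had 41.6, 40.2 and 43.8 CPM in the control libraries and 21.3, 26.99 and 24.02 CPM in the butyrate libraries (log2 fold change -0.80, SE 0.114, adjusted p = 0.000666). In each gene the butyrate values lay well below the control range. Kdm3a, a demethylase of H3K9 induced by low oxygen, was not called (139 ± 19.8 and 153 ± 14.7 CPM, interval -0.12 to 0.41). Other lysine demethylase genes fell in 5 of 13 tested and rose in 1 (38.5% and 7.69%, against 22.5% and 23.5% of all genes). Kdm3b went from 151 ± 11.1 to 92.6 ± 5.64 CPM and Riox2 from 259.9 ± 10.2 to 179.6 ± 14.2 CPM (log2 fold changes -0.70 and -0.53, adjusted p = 0.000369 and 0.00123), while Riox1 rose by 0.34 (adjusted p = 0.0223). Kdm1a, the flavin-dependent H3K4 demethylase LSD1, was not called (58.8 ± 6.94 and 61.1 ± 3.01 CPM).

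In DNA methylation, the de novo enzyme gene Dnmt3a fell clearly, Dnmt1 slightly, and Uhrf1 and Dnmt3b were not called. Dnmt3a (chromosome 12, 3801559 to 3914443, gene 13435) had 120.3, 133 and 101 CPM in the control libraries and 77.5, 76.5 and 60.6 CPM in the butyrate libraries (log2 fold change -0.72, SE 0.129, adjusted p = 0.00211). The groups did not overlap, and the call held in all 18 alternatives. Dnmt1 (chromosome 9, 20907206 to 20959888, gene 13433), the maintenance enzyme, had 422, 468 and 428 CPM in the control libraries and 395, 364 and 340.0 CPM in the butyrate libraries (log2 fold change -0.26, SE 0.0895, adjusted p = 0.0394). The groups did not overlap, but the call was lost in 9 of 18 alternatives. These included length and GC offsets (0.054), upper quartile scaling (0.125), the stricter filter (0.0564), and the fits without control replicate 1 (0.0595), 2 (0.135) or 3 (0.0708) or butyrate replicate 2 (0.094) or 3 (0.105).

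Uhrf1, which guides Dnmt1 to newly replicated DNA, had 412, 456 and 506 CPM in the control libraries and 586, 438 and 429.5 CPM in the butyrate libraries. Butyrate replicate 1 was the highest of all and the groups overlapped (interval -0.23 to 0.39). Dnmt3b, the second de novo enzyme, had 18.5, 14.5 and 17.03 CPM in the control libraries and 24.8, 21.3 and 18.1 CPM in the butyrate libraries, with overlapping groups (adjusted p = 0.089), and was called higher with the replicate block (0.0474) and with upper quartile scaling (0.0435). The log2 ratio of Dnmt3b to Dnmt3a per kb was -1.50, -2.0 and -1.38 in control and -0.45, -0.65 and -0.55 with butyrate. Dnmt3a was the higher of the pair in all 6 libraries, and the ratio was above the control range in each butyrate library. Of 14 tested genes of DNA methylation readers and partners 6 fell and 1 rose (42.9% and 7.14%, against 22.5% and 23.5% of all genes). Ogt, an O-GlcNAc transferase that binds TET proteins, went from 406 ± 22.8 to 265 ± 22.3 CPM and Mbd3, a subunit of the NuRD complex, from 119 ± 15.2 to 70.8 ± 9.37 CPM (log2 fold changes -0.61 and -0.75, adjusted p = 0.000823 and 0.00146). Cxxc5, a CpG-binding protein, rose from 2.96 ± 0.932 to 14.6 ± 3.46 CPM (2.31, adjusted p = 0.000298).

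Of the TET genes, which encode the enzymes that start DNA demethylation, 2 of 3 fell (66.7%, against 22.5% of all genes). Tet2 (chromosome 3, 133463677 to 133545136, gene 214133) had 79.9, 81.4 and 75.4 CPM in the control libraries and 63.2, 61.2 and 58.95 CPM in the butyrate libraries (log2 fold change -0.37, SE 0.08, adjusted p = 0.00552). The groups did not overlap, and with length and GC offsets the log2 fold change was -0.22 (adjusted p = 0.0473). Tet3 (chromosome 6, 83362373 to 83457208, gene 194388) had 216, 191 and 174 CPM in the control libraries and 169, 138 and 123 CPM in the butyrate libraries (log2 fold change -0.44, SE 0.13, adjusted p = 0.023). It lost its call without control replicate 1 (0.0746) or 2 (0.0536) or butyrate replicate 2 (0.0736) or 3 (0.0675). Tet1 had 8.10, 4.08 and 2.11 CPM in the control libraries and 10.4, 4.99 and 4.43 CPM in the butyrate libraries, the fewest counts of the 43, and the widest interval (-0.62 to 1.58, adjusted p = 0.45). With length and GC offsets and the replicate block together it was called higher (0.71, adjusted p = 0.0286). Per kb, Tet3 stood above Tet2 and Tet2 above Tet1 in control (16.5 ± 1.79, 8.58 ± 0.339 and 0.331 ± 0.212 CPM) and in butyrate (12.2 ± 2.002, 6.64 ± 0.234 and 0.459 ± 0.228 CPM).

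Enzymes that supply the methyl donor or the cofactors of demethylases moved both ways, with 6 of 16 tested higher and 4 lower. These shares, 37.5% and 25%, stood beside 23.5% and 22.5% of all genes. Ahcy, which clears the S-adenosylhomocysteine left by methylation, rose from 93.1 ± 4.50 to 146 ± 6.61 CPM and Shmt1, a folate-cycle enzyme, from 43.2 ± 5.29 to 94.1 ± 14.6 CPM (log2 fold changes 0.65 and 1.12, adjusted p = 0.00032 and 0.000316). Idh1, which makes the 2-oxoglutarate that TET and JmjC enzymes need, fell from 21.2 ± 6.04 to 8.47 ± 0.477 CPM and Mtr, the methionine synthase, from 28.8 ± 2.63 to 18.9 ± 1.70 CPM (-1.32 and -0.60, adjusted p = 0.00125 and 0.00412). Arginine methyltransferase genes and the Prmt5 partner Wdr77 rose in 2 of 9 tested and fell in 0 by edgeR (1 at an unadjusted p of 0.05, and 0 by DESeq2 or limma voom), and the rises were 4 with upper quartile scaling and 1 by DESeq2. The shares by edgeR were 22.2% higher and 0% lower, against 23.5% and 22.5% of all genes. Wdr77 went from 105 ± 6.33 to 159 ± 19.2 CPM (0.61, adjusted p = 0.0017) and Carm1 from 68.8 ± 2.64 to 81.3 ± 5.12 CPM (0.24, 0.0432).

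**Figure D5:**
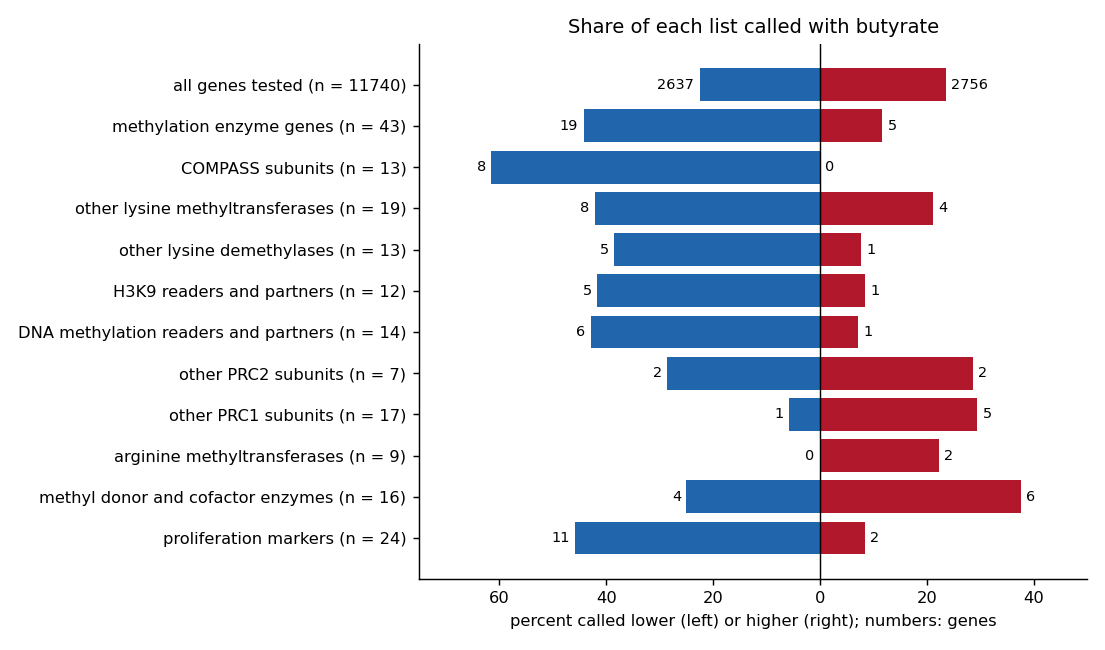
Percent of the tested genes of each list called lower (blue, left) or higher (red, right) with butyrate, with the number of genes beside each bar and the number tested in the label. COMPASS subunits have 8 lower and 0 higher, and other PRC1 subunits 1 lower and 5 higher, beside 2637 lower and 2756 higher among all genes tested.

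Median log2 fold changes of the lists, beside 0.0034 over all genes tested, were -0.27 for COMPASS subunits, -0.29 for H3K9 readers and partners, -0.26 for DNA methylation readers and partners and -0.24 for other lysine methyltransferases. They were -0.0083 for other lysine demethylases, -0.057 and 0.08 for other PRC2 and PRC1 subunits, 0.17 for arginine methyltransferases and 0.17 for methyl donor and cofactor enzymes. Among the roles of the 43 genes, the median was lowest for H3K9 and H3K36 demethylases (-0.65), H3K36 and H3K79 methyltransferases (-0.6) and H3K4 methyltransferases (-0.45), and highest for H3K4 demethylases (0.17) and PRC2 (0.12). With few genes in a role, single genes set its median. The H3K4 demethylase role counted Kdm2b (0.60), apart from its paralog Kdm2a, with Kdm5b (0.83), Kdm5a (-0.37) and Kdm5c (-0.25). The high rank of this role rests on counting Kdm2b there, since without it the middle value is that of Kdm5c (-0.25).

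Most loci known to be silenced by these marks had few or no counts. Of 24 genes that Polycomb silences in many tissues, 3 passed the filter and 0 were called by edgeR, DESeq2 or limma voom (1, Hoxb4, at an unadjusted p of 0.05), while 1 was called higher with upper quartile scaling and 2 with the replicate block. Cdkn2a, the locus that Bmi1 restrains, had 15.7, 28.9 and 47.4 CPM in the control libraries and 25.3, 38.3 and 87.8 CPM in the butyrate libraries, with overlapping groups (adjusted p = 0.251). It was higher with butyrate in all 3 same-numbered pairs, and called higher with the replicate block (log2 fold change 0.68, adjusted p = 0.00129). Hoxb4 stood at 3.38 ± 0.169 and 5.31 ± 1.01 CPM and was called higher with the block (0.0492). Of the 24, 9 had 0 counts in all libraries. Of 18 germline genes kept silent by DNA methylation, 14 had 0 counts in all 6 libraries, and their summed level was 2.43 to 3.42 CPM in control and 2.03 to 3.78 CPM with butyrate.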

How the data were processed

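RNA of 3 control and 3 butyrate libraries was made from 1 µg of total RNA with a TruSeq kit, per the labels' protocols. The authors deposited raw read counts per Entrez gene number, 1 column per library, matched here by the label that names each column. Software named in the submitters' processing notes is TopHat, Subread, featureCounts, edgeR, CASAVA and Picard, on mm10. Counts of paralogs and overlapping genes are uncertain, since strand setting, handling of shared reads and each tool's version were not given in the sources used here. All 43 genes were matched by symbol in a RefSeq table of GRCm38.p6, the assembly of mm10, whose coordinates are printed 1-based. Of 27179 gene numbers, 1904 had no name and held 0.965% to 1.20% of a library's counts.

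Butyrate was compared with control in edgeR 4.0.16 (R 4.3.3), with TMM scaling, filterByExpr and the quasi-likelihood F test. An SE is the absolute log2 fold change divided by the root of F. The script was tested on simulated data. Exon lengths are merged exons of GENCODE's basic set. Replicate libraries differed beyond sampling noise (chi-square over its degrees of freedom 5.69 to 11.3). Since no label ties replicates to separate mice or cultures, p-values reflect only how these libraries spread, possibly for technical reasons. No molecular identifiers are named, so limits for a count of 0 (3 counts) cover counting error only. Control and butyrate share replicate numbers. Deviations from group means correlated at 0.362, 0.197 and 0.353 between same-numbered libraries, and at -0.301 to -0.0746 between differently numbered ones. Deviations cancel within a group, so the negative values follow from the positive ones and add no separate evidence. The numbers were taken to pair the libraries because of the positive values, from the data and not the labels. Calls gained with the replicate block thus rest on a pairing read from the same data. The main fit was unpaired, and the replicate block is the alternative fit that pairs libraries by number.

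Each of the 43 genes is named, with values per library for up to 2 called genes with the smallest p in each of 10 roles. Related lists are given by counts, medians or sums and up to 2 called genes per direction with the smallest p, and further genes named, or given per library, were chosen after their values were seen. Genes and lists were chosen with earlier results of these data known. Alternatives were scaling by RLE, by upper quartile or by total counts, no filter, a stricter filter (5 CPM or more in 3 libraries), limma voom (limma 3.58.1), DESeq2 1.42.0, robust edgeR, glmTreat against a fold of 1.2, the replicate block and each library left out. Length and GC offsets, with and without the block, were added after the data were seen.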

Additional observations from a re-analysis of the deposited data

How the results depend on the processing

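Over 18 alternatives, 692 of 773 values of the 43 genes kept their direction and side of the threshold, 52 lost the call, 15 gained one and 14 changed sign, all in genes not called under either setting. Tet1 did not pass the stricter filter and has no value there. The sign changes were Cbx7 to -0.0103 without a filter, Suv39h2 to 0.0141 and Dot1l to 0.0035 with upper quartile scaling, and Suv39h2 to 0.034 with length and GC offsets and 0.0296 with the replicate block added. Leaving out 1 library took Eed from -0.239 to 0.278, Cbx7 from -0.0858 to 0.276, Setdb1 from -0.0235 to 0.0992, Uhrf1 from -0.0784 to 0.163 and Tet1 from -0.00182 to 1.11. Of the 24 called genes, 12 were called in every alternative. With the replicate block 21 of the 43 were lower and 6 higher, and 6315 genes were called in all (3095 lower and 3220 higher, of 11740 tested). Rnf2, Kmt2c and Dnmt3b gained calls and the block changed no other call among the 43. glmTreat, which asks for more than a 1.2-fold change, called 3447 genes (1562 lower and 1885 higher), 9 of the 43 lower and 3 higher. With length and GC offsets and the block 9 of the 43 were higher, beside 3253 of all 11740 genes tested. Leaving out 1 library gave 14 to 20 lower, 3 to 5 higher and 4509 to 5185 genes called in all. Of these, 2118 to 2552 were lower and 2369 to 2633 higher. Higher calls were 3 without control replicate 2 or 3 or butyrate replicate 2, where Jarid2 and Cbx2 were lost. With the block, markers of CD8+ T cells were lower in 7 of 12 in place of 4 and higher in 2 in place of 1. Lower calls among the H3K4 demethylases were 1 with upper quartile scaling and 0 with length and GC offsets, in place of 2. Depth limits what can be said of genes at 0 counts, which allow up to 0.480 to 0.557 CPM.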

Other observations

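Of 4 pairs of neighbours among the 43 genes that lie 874 kb or less apart, with other genes between them ignored, 3 held genes that were called differently. In the other, Ring1 and Ehmt2, 874 kb apart on chromosome 17, neither was called. Kdm4b and Uhrf1 lie 2.48 kb apart on chromosome 17, and Kdm4b fell by 0.80 on the log2 scale while Uhrf1 was not called (0.08). Kdm2b and Setd1b lie 153 kb apart on chromosome 5, with log2 fold changes of 0.60 and -0.79. Cbx2 and Cbx8 lie 5.03 kb apart on chromosome 11, and Cbx2 rose (0.41) while Cbx8 was not called (0.17, interval -0.18 to 0.53). Over all 43 genes 19 were lower, 5 higher and 19 not called, so pairs with unlike calls are common wherever the genes lie. The differences within these neighbouring pairs were not tested.

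Among the Polycomb-silenced loci, Wnt6 had 0 counts in each control library and 8 in each butyrate library, and Hoxb9 had 0 in control against 2, 3 and 11. Both were chosen after their values were seen and were not tested, since they did not pass the filter on low counts.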
